A study of Bos indicus with 5 samples.

Results

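The genes described here encode the machinery that builds a cilium and controls what enters it: the intraflagellar transport (IFT) trains and their return motor, the BBSome, and the transition zone at the ciliary base. They were taken by gene symbol alone, from names beginning with IFT, BBS, NPHP or TCTN and a set of named subunits. The rule itself used no measured value, but the choice was made with earlier results of these data known. The rule gave 54 of the 24616 genes in the table of normalized read counts of the oviduct ampulla. The 54 entries carry 53 symbols, since IFT27 has 2 Ensembl entries. Gene expression had been measured by RNA sequencing of polyA RNA from Nelore cows, a *Bos indicus* breed, in the ampulla, the broad part of the oviduct where fertilization takes place.

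All cows were multiparous and healthy, and all received an intravaginal progesterone device with estradiol benzoate, prostaglandin F2 alpha at device removal and again hours later, and a GnRH agonist to induce ovulation. Cows grown to ovulate a large follicle and to form a large corpus luteum (LF/LCL) had the device removed 42 h before GnRH, and these cows had also received prostaglandin when the device was inserted. Cows with a small follicle and a small corpus luteum (SF/SCL) had it removed 30 h before GnRH and were not given the early prostaglandin. Timing of removal and the early prostaglandin therefore cannot be told apart. Tissue through the whole thickness of the wall was taken on day 4 from the oviduct on the side of the corpus luteum. The sequenced cows had been picked from the 2 ends of a ranking on ovarian and endocrine measures, so they are extremes of each group. The 5 libraries, 2 of LF/LCL and 3 of SF/SCL, came from different animals, and held 13418278 to 19592174 counted reads. A further LF/LCL ampulla sample had been discarded by the authors, because its library was of inadequate quality and gave few reads.

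A cilium cannot make its own protein. Its parts are carried from the base to the tip on trains of the IFT-B complex, pulled by kinesin-2, and the trains return through the IFT-A complex and the dynein-2 motor. The BBSome, a coat-like complex, links membrane proteins to the trains, and the MKS and NPHP modules of the transition zone form the gate between the cell body and the cilium. In the oviduct most cilia belong to multiciliated epithelial cells, whose beating moves the oocyte and embryo, although primary cilia of other cells use the same machinery. In bulk tissue, fewer ciliated cells and less RNA per ciliated cell cannot be told apart.

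All 54 genes were well measured: the smallest count of any of them in any library was 50 reads, and mean normalized counts ran from 116 to 5197, with 27 genes at or above 1000. All passed the filter of a mean above 5 that 15815 genes passed. A normalized count is the number of reads of a gene divided by one factor per library that corrects for its depth. It is not divided by gene length, so levels of different genes are not compared here.

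The cilium transport and gate genes were mostly lower in LF/LCL than in SF/SCL by a small amount. Of the 54 genes, 48 had a lower mean in LF/LCL on the log2(value + 1) scale and 6 a higher one. The median log2 fold change (LF/LCL over SF/SCL) was -0.29, which is a level 1.22 times as high in SF/SCL, against 0.01 over all 15815 genes tested. The middle of the distribution, from the lower to the upper quartile, ran from -0.46 to -0.15. Fold changes spanned -0.87 for IFT27 (ENSBTAG00000026657) to 0.59 for BBS10.

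No single gene passed the test after correction. With limma on log2(value + 1) and Benjamini-Hochberg adjustment over all genes tested, 0 of 54 members were at an adjusted p under 0.05, as were 0% of all genes, and the smallest adjusted p of a member was 0.248. At an unadjusted p under 0.05, 17 members were lower in LF/LCL and 0 higher, or 31.5% of the members, whereas 5.86% of all genes were lower and 5.64% higher at that threshold. Both LF/LCL libraries lay below all 3 SF/SCL libraries for 32 members (59.3%), against 15.1% of all genes. The opposite order held for 1 member, BBS10, against 15.0% of all genes. In the remaining 21 members the groups overlapped.

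With read counts recovered from the table, edgeR gave similar counts to limma at both thresholds, and DESeq2 a different one at the adjusted threshold. The edgeR quasi-likelihood test had 18 members at an unadjusted p under 0.05 and 0 at an adjusted one. DESeq2 called 6 members at an adjusted p under 0.05, all lower in LF/LCL, against 1.50% of all genes called in that direction. These were IFT172, WDR19, BBS9, TCTN1, TCTN2 and CC2D2A, and they lie in IFT-B, IFT-A, the BBSome and the transition zone. A p-value here sets a group difference against the variation within groups, estimated from these few animals with information shared across genes.

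**Figure D1:**
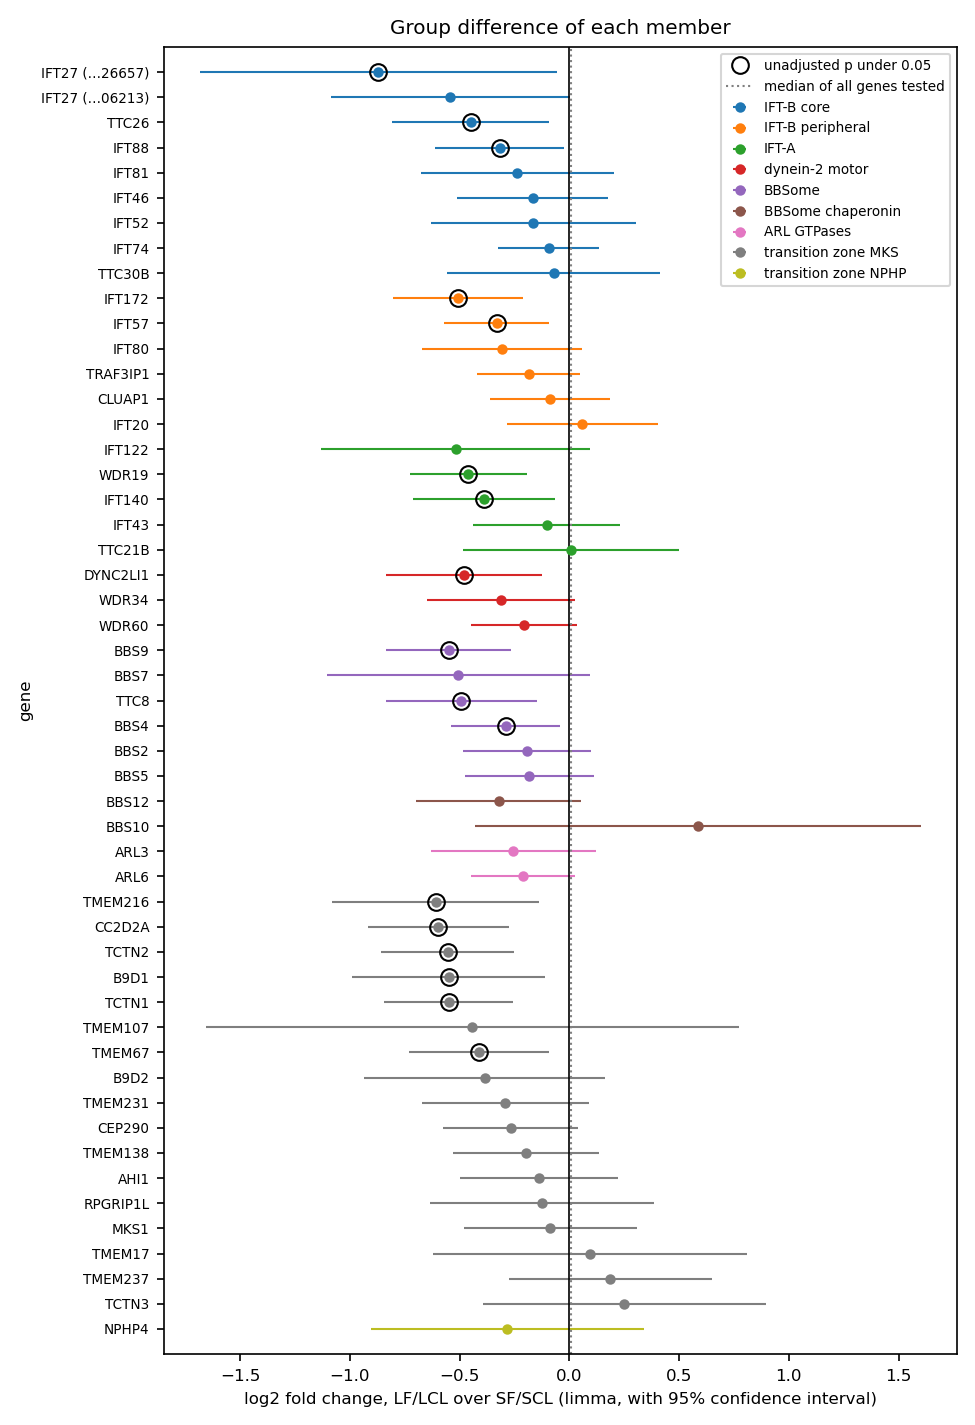
Log2 fold change of 51 of the 54 genes (x axis, LF/LCL over SF/SCL, limma) with its 95% confidence interval, grouped and coloured by role on the y axis; black rings mark an unadjusted p under 0.05 and the dotted line is the median of all genes tested. In 45 genes the point lies left of 0, and the 17 ringed genes all do; the widest intervals belong to BBS10 and TMEM107.

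The set as a whole took a smaller share of the reads in LF/LCL. The summed normalized count of the 54 genes was 62322 and 63143 in the LF/LCL libraries, against 76967, 81868 and 74285 in SF/SCL. As a share of all counted reads this was 0.396% and 0.403% in LF/LCL, against 0.501%, 0.538% and 0.485% in SF/SCL. Neither measure overlapped between the groups. Counted gene by gene, the lowest of the 5 values was in LF/LCL replicate 1 for 26 members and in LF/LCL replicate 2 for 22. It was in SF/SCL replicate 3 for 4 members, in replicate 2 for 2 and in replicate 1 for 0. The highest value was in SF/SCL replicate 2 for 29 members and in SF/SCL replicate 1 for 12.

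**Figure D2:**
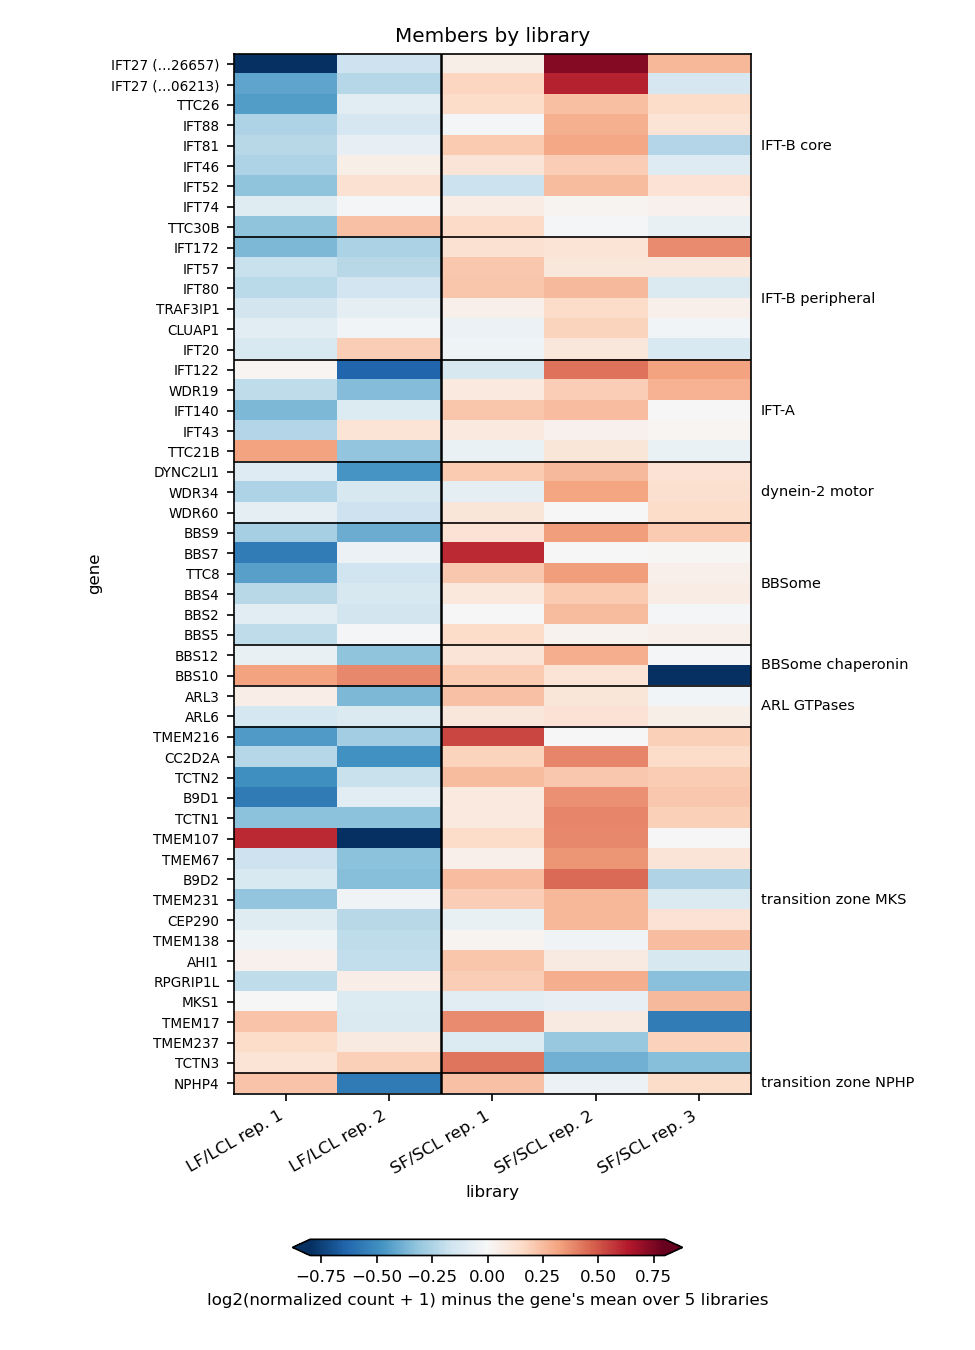
Each row is a gene, 51 of the 54, grouped by role, and each column 1 library; colour is log2(normalized count + 1) minus that gene's mean over the 5 libraries, blue for below and red for above. The 2 LF/LCL columns are mostly blue and SF/SCL replicate 2 is the reddest, the highest library for 28 genes; BBS10 stands out as dark blue in SF/SCL replicate 3 and TMEM107 as dark blue in LF/LCL replicate 2.

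The IFT-B core, the rigid spine of the outbound train, was lower in LF/LCL for 9 of 9 entries, with a median log2 fold change of -0.24. Of these, 3 (TTC26, IFT88 and the entry of IFT27 with fewer reads) had an unadjusted p under 0.05 in limma. That is 33.3% of the core entries, against 5.86% of all genes that were lower at that threshold. IFT88, a large subunit whose loss stops cilia from forming, had normalized counts of 1786 and 1931 in LF/LCL, against 2104, 2577 and 2285 in SF/SCL. TTC26, also known as IFT56, had 400 and 513 against 606, 647 and 605. For both genes the LF/LCL libraries were the lowest of the 5, and the gap was narrow for IFT88. The fold change of IFT88 was -0.32 with a 95% confidence interval of -0.61 to -0.02, and that of TTC26 was -0.45 (-0.81 to -0.09), with limma adjusted p of 0.414 and 0.359.

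IFT27, a small GTPase of the train that couples it to BBSome exit, was the most variable of the core. Its entry ENSBTAG00000026657 held 68.0 and 112 normalized counts in LF/LCL, against 130, 211 and 151 in SF/SCL, and its entry ENSBTAG00000006213 held 758 and 864 against 1142, 1552 and 926. The groups did not overlap in either, and in both the highest value was SF/SCL replicate 2. Reads of the 2 entries may be split between them by the counting of uniquely mapped reads, so neither value is certain. The 6 core entries other than the 3 named first had fold changes from -0.54 to -0.07, the smallest belonging to TTC30B.

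The peripheral IFT-B subunits, which join the train to its motors and cargo, were lower in 5 of 6 genes (median -0.25). IFT172, the largest of them and needed for the turnaround at the tip, had 2627 and 2825 in LF/LCL, against 3662, 3625 and 4374 in SF/SCL. IFT57, a coiled-coil subunit, had 4570 and 4424 against 5994, 5501 and 5497. In both genes the gap between the groups was wider than the difference between the LF/LCL libraries. IFT172 was 1.42 times as high in SF/SCL (log2 fold change -0.51 ± 0.12 SE, limma adjusted p = 0.284), and DESeq2 gave it an adjusted p of 0.0344. IFT57 had a fold change of -0.33 ± 0.10 (limma adjusted p = 0.330). IFT80, a WD-repeat subunit, had 584 and 609 against 788, 811 and 626, with a narrow gap at SF/SCL replicate 3. The other 3 genes, among them IFT20, ran from -0.19 to 0.06.

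Of the IFT-A complex, which carries membrane cargo in and the train back, 4 of 5 genes were lower in LF/LCL (median -0.39). WDR19, the IFT144 subunit of its core, had 2415 and 2186 normalized counts in LF/LCL, against 2936, 3189 and 3378 in SF/SCL. IFT140, a core WD-repeat subunit, had 2832 and 3373 against 4242, 4321 and 3623. The groups did not overlap in either gene. WDR19 was 1.38 times as high in SF/SCL (log2 fold change -0.46 ± 0.11 SE, limma adjusted p = 0.283, DESeq2 adjusted p = 0.0315), and IFT140 was at -0.39 ± 0.13 (limma adjusted p = 0.369). IFT122 had the largest fitted difference of the complex, -0.52, with a wide interval of -1.13 to 0.10. Its values were 2382 and 1517 in LF/LCL against 2153, 3183 and 2945 in SF/SCL, so LF/LCL replicate 1 lay inside the SF/SCL range. IFT43 and TTC21B had fold changes of -0.10 and 0.01.

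The dynein-2 genes of the return motor were lower in 3 of 3, with no overlap between the groups in any. DYNC2LI1, the light intermediate chain of the motor, had 634 and 492 in LF/LCL, against 789, 816 and 738 in SF/SCL. Its log2 fold change was -0.48 ± 0.15 SE (limma adjusted p = 0.334). The intermediate chains had smaller differences: WDR34 had 1248 and 1353 against 1410, 1843 and 1616, and WDR60 had 1726 and 1623 against 1952, 1827 and 2017. Their fold changes were -0.31 and -0.21, with intervals that reached past 0.

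The BBSome kept the same order of groups in every subunit that had an entry. All 6 of its genes in the table were lower in LF/LCL, with a median fold change of -0.39. In all 6 both LF/LCL libraries lay below all 3 SF/SCL libraries, against 15.1% of all genes. BBS9, a scaffold subunit, had 783 and 714 normalized counts in LF/LCL, against 1017, 1188 and 1088 in SF/SCL. TTC8, known as BBS8, had 747 and 905 against 1174, 1272 and 1036, and BBS4, a subunit also found at centriolar satellites, had 3661 and 3900 against 4511, 4926 and 4433. The gap between the groups was wider than the difference between the LF/LCL libraries for BBS9 and BBS4, and a little narrower for TTC8. BBS9 was 1.46 times as high in SF/SCL (-0.55 ± 0.12 SE on the log2 scale, limma adjusted p = 0.248, DESeq2 adjusted p = 0.0197). TTC8 was at -0.49 ± 0.14 and BBS4 at -0.29 ± 0.10, with limma adjusted p of 0.323 and 0.378. The other subunits with an entry, BBS2, BBS5 and BBS7, ran from -0.51 to -0.18, and none had an unadjusted p under 0.05.

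Among the members, the chaperonin-like proteins that assemble the BBSome differed in direction. BBS12 had 487 and 406 in LF/LCL, against 547, 622 and 503 in SF/SCL, a fold change of -0.32 (-0.70 to 0.05). BBS10 had 137 and 143 against 127, 118 and 53.7, the only member whose LF/LCL libraries were both above all SF/SCL ones. Its fold change of 0.59 had an interval of -0.43 to 1.60, and it was set largely by the low value in SF/SCL replicate 3. Without that library it was 0.19. MKKS, a further protein of this kind that the symbol rule does not take, was lower in LF/LCL without overlap. It had 697 and 631 against 708, 741 and 802, a fold change of -0.18 (-0.46 to 0.11).

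The ARL GTPases were lower in 3 of 3 by small amounts. ARL6, which recruits the BBSome to membranes, had 916 and 932 in LF/LCL, against 1074, 1095 and 1041 in SF/SCL, with no overlap and a fold change of -0.21 (-0.45 to 0.02). ARL3, which releases lipidated cargo inside the cilium, had 1635 and 1232 against 1856, 1685 and 1555, where LF/LCL replicate 1 lay inside the SF/SCL range.

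In the MKS module of the transition zone, 14 of 17 genes were lower in LF/LCL (median -0.29). Of the 17, 6 had an unadjusted p under 0.05 (35.3%) and 8 had no overlap between groups (47.1%), all lower. The shares of all genes that were lower in these ways were 5.86% and 15.1%. The tectonic TCTN1 had 1561 and 1560 normalized counts in LF/LCL, against 2072, 2573 and 2239 in SF/SCL. Its paralog TCTN2 had 735 and 913 against 1228, 1198 and 1187, and CC2D2A, a coiled-coil protein that anchors the module, had 1211 and 1015 against 1612, 1865 and 1572. In these 3 genes the gap between the groups was wider than the difference between the LF/LCL libraries. Levels were 1.46, 1.47 and 1.51 times as high in SF/SCL, and log2 fold changes were -0.55 ± 0.12 SE for TCTN1, -0.55 ± 0.12 for TCTN2 and -0.60 ± 0.13 for CC2D2A. The limma adjusted p were 0.248, 0.253 and 0.248, and the DESeq2 adjusted p were 0.0197, 0.0347 and 0.0224. TCTN3, the other tectonic, went the other way, with 677 and 714 against 843, 479 and 495 and a fold change of 0.25 whose interval ran from -0.39 to 0.89.

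A further 3 MKS genes had an unadjusted p under 0.05 and are named after their values were seen. TMEM216 had 277 and 312 in LF/LCL, against 550.0, 380.0 and 431 in SF/SCL, B9D1 had 396 and 551 against 622, 757 and 683, and TMEM67, the membrane receptor-like protein meckelin, had 1289 and 1152 against 1488, 1845 and 1556. None of the 3 overlapped between the groups. Their fold changes were -0.61, -0.55 and -0.41. TMEM107, a tetraspan protein of the module, showed the widest spread among libraries of 1 group: 584 and 176 in LF/LCL, against 427, 504 and 386 in SF/SCL, so its highest and its lowest value were both in LF/LCL. The remaining 9 genes of the module included CEP290, the bridge between microtubules and membrane, at -0.27 (-0.57 to 0.04), and TMEM237 and TMEM17 at 0.19 and 0.10.

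The NPHP module, which sits beside the MKS module at the gate, was lower in 3 of 3, with a median of -0.28. In 1 gene the groups did not overlap (33.3%, against 15.1% of all genes lower without overlap). NPHP4, a scaffold of the module, had 403 and 232 in LF/LCL, against 405, 334 and 382 in SF/SCL. LF/LCL replicate 1 lay at the SF/SCL level and replicate 2 below it. The fold change of NPHP4 (-0.28) became 0.11 without LF/LCL replicate 2.

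**Figure D3:**
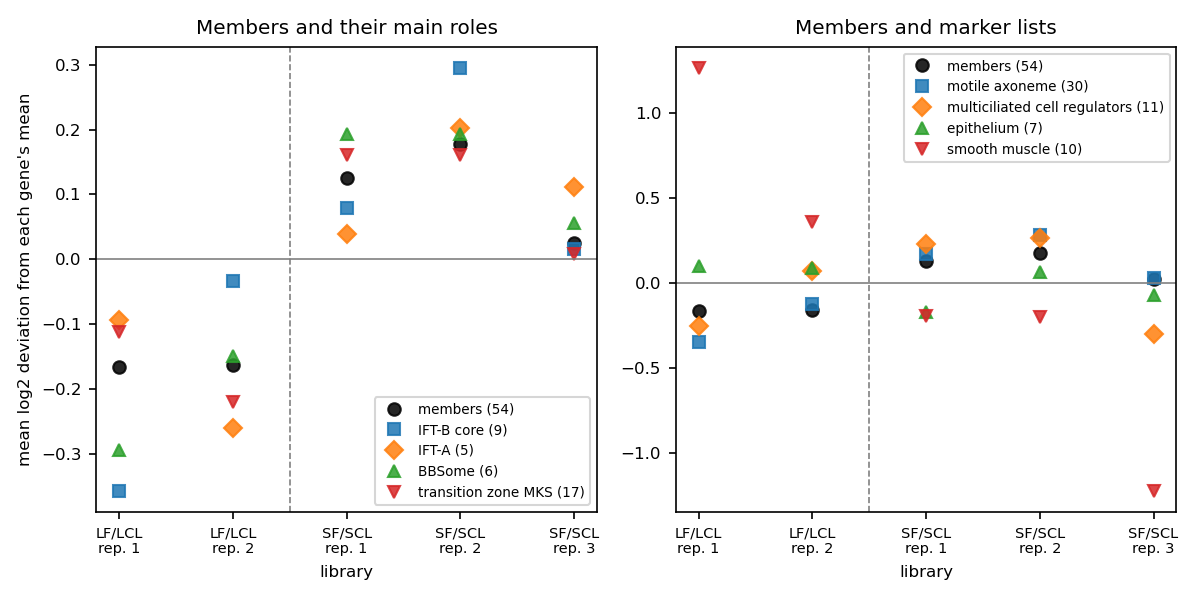
Mean log2 deviation of a gene list from each gene's own mean (y axis) in each of the 5 libraries (x axis), with the number of genes in brackets; the left panel shows all 54 members and their main roles, the right panel the members beside marker lists, on a wider scale. The members sit at -0.17 and -0.16 in LF/LCL and between 0.02 and 0.18 in SF/SCL, while smooth muscle genes range from 1.26 in LF/LCL replicate 1 to -1.22 in SF/SCL replicate 3.

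The 2 LF/LCL animals had almost the same average level of the whole set but a different balance of roles within it. The mean log2 deviation of the 54 genes from their own means was -0.17 in replicate 1 and -0.16 in replicate 2, against 0.13, 0.18 and 0.02 in SF/SCL. The IFT-B core was at -0.36 in LF/LCL replicate 1 and -0.03 in replicate 2, and all 9 entries were lower in replicate 1. The BBSome was also lower in replicate 1, at -0.29 against -0.15. IFT-A went the other way, at -0.09 and -0.26, as did dynein-2 at -0.14 and -0.26. The MKS module was at -0.11 and -0.22, with 6 of 17 genes lower in replicate 1. Over all genes tested, 49.9% were lower in replicate 1 than in replicate 2. Each side of this is 1 animal, so it has no replicate and no test.

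The genes that work beside the members, but that the symbol rule does not take, were also lower, by less. These genes had 57 entries, 3 of them for DYNLL1, each lower in LF/LCL without overlap and each counted. Of the 57 entries, 56 were tested, RPGRIP1 being under the filter. Their median fold change was -0.21, with 40 lower and 16 higher. At an unadjusted p under 0.05 there were 12, all lower in LF/LCL (21.4%, against 5.86% of all genes). In 24 the groups did not overlap in that direction (42.9%, against 15.1% of all genes), and in 0 in the other. In limma 0 passed at an adjusted p under 0.05. DESeq2 called 1, CSPP1, lower in LF/LCL, against 1.50% of all genes called in that direction. The 12 became 3 without LF/LCL replicate 1 and 7 without LF/LCL replicate 2.

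Of the distal appendage and basal body genes, which dock the basal body and recruit IFT to it, 8 of 9 were lower (median -0.31). At an unadjusted p under 0.05 and lower there were 4 (44.4%, against 5.86% of all genes). CSPP1, a microtubule protein of the axoneme base, had 1440 and 1575 in LF/LCL, against 1970, 2027 and 2274 in SF/SCL (log2 fold change -0.47 ± 0.11 SE, DESeq2 adjusted p = 0.0395). CEP164, the appendage protein that starts docking, had 413 and 478 against 584, 593 and 610. Both had a gap between the groups wider than the LF/LCL pair.

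Of the kinesin-2 genes, which drive the outbound train, 4 of 5 were lower, but the subunits differed in size. KIF17, the homodimeric motor, had 455 and 604 in LF/LCL, against 780, 786 and 840 in SF/SCL, a fold change of -0.61 ± 0.15. KIF3B, of the heterotrimeric motor, had 1879 and 1635 against 2023, 2018 and 1981, at -0.20 ± 0.10. KIF3A, its partner, was at 0.05 with the groups overlapping. MAK, a kinase that limits cilium length, was at -0.57 ± 0.16, and RABL2B, a GTPase that loads the IFT-B train, at -0.24 ± 0.09.

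Among dynein light chains, DYNLRB2, the roadblock chain typical of ciliated tissue, had 2205 and 2142 in LF/LCL against 2771, 3264 and 2585, at -0.40 ± 0.13. Its paralog DYNLRB1 was at 0.03. The 3 entries of DYNLL1 had nearly equal fold changes, each rounding to -0.24, and reads may be split between them. TMEM218 of the transition zone was at -0.44 ± 0.11 and UNC119B, a carrier of myristoylated cargo, at -0.34 ± 0.10, both without overlap. PDE6D, a carrier of prenylated cargo, was at -0.51 ± 0.23. RPGR, a transition zone regulator, was at -0.29 ± 0.16. C5orf42 was at -0.31 ± 0.14 and INTU, like it a planar polarity effector of cilium assembly, at -0.21 ± 0.21; INTU turned to 0.07 without LF/LCL replicate 1. Genes for membrane docking were split, with 2 of 5 lower, among them RAB3IP at -0.36 ± 0.13 and EHD1 at -0.16 ± 0.12.

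The ampulla held nearly all the multiciliated cell markers that were looked for. The motile axoneme list held genes of the dynein arms and radial spokes and other genes linked to beating cilia. Of its 31 entries 30 were tested, PIFO being under the filter, and 28 of 30 were lower in LF/LCL with a median of -0.41. At an unadjusted p under 0.05 there were 13, all lower (43.3%, against 5.86% of all genes). In 19 the groups did not overlap, again all lower (63.3%, against 15.1% of all genes). SNTN, of the ciliary tip, had 332 and 444 in LF/LCL, against 736, 640.4 and 728 in SF/SCL, and ARMC3 had 2645 and 1989 against 3868, 3702 and 4300.3. The summed level of the axoneme list was 93520 and 117165 in LF/LCL and 131109 to 145077 in SF/SCL, without overlap.

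Library by library, the axoneme genes deviated by -0.35 and -0.13 in LF/LCL and by 0.17, 0.28 and 0.03 in SF/SCL. The members minus the axoneme genes were at 0.19 and -0.04 in LF/LCL, compared with -0.05, -0.10 and 0.00 in SF/SCL, so the groups overlapped in this difference. Regulators of the multiciliated state had a median of -0.27 with 9 of 11 lower. The 2 higher ones were CDC20B at 1.04, with a wide interval of -1.59 to 3.66, and CCNO at 0.24. The regulator list deviated by -0.26 and 0.07 in LF/LCL and by 0.23, 0.26 and -0.30 in SF/SCL, so the groups overlapped. RFX2, a transcription factor of ciliary genes, was at -0.49 ± 0.11 (1412 and 1437 against 1818, 2184 and 2034), and TP73, which acts upstream in the same programme, was at -0.73 ± 0.18. The share of the members' difference that goes with the amount of ciliated cells was not tested.

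**Figure D4:**
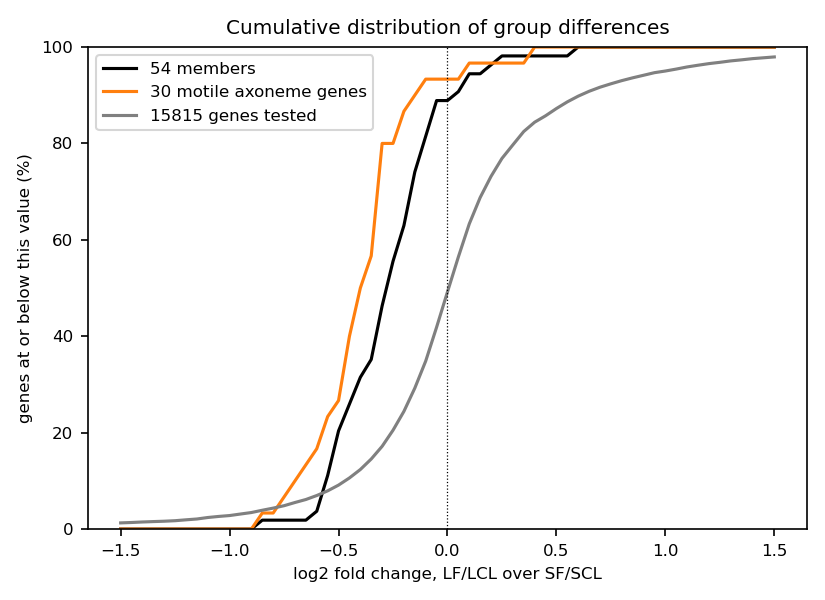
Cumulative percentage of genes (y axis) at or below each log2 fold change (x axis, LF/LCL over SF/SCL) for the 54 members, 30 motile axoneme genes and all 15815 genes tested. At -0.2 the curves stand at 63.0%, 86.7% and 24.4%, and at 0 at 88.9%, 93.3% and 49.2%.

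Marker lists of other cells of the wall were also uneven between the groups, with 0 genes at a limma adjusted p under 0.05. All 10 smooth muscle genes, among them ACTA2, DES and MYH11, were higher in LF/LCL, with a median of 1.37. At an unadjusted p under 0.05 there were 8, against 5.64% of all genes that were higher. DESeq2 called 4 of the 10, against 457 of all 15815 genes in any direction. The summed level of the smooth muscle genes was 116302 and 58729 in LF/LCL and 16028 to 39533 in SF/SCL, and none was at 0. Proliferation genes were higher in 11 of 12 (median 1.09) and immune genes in 8 of 10 (median 0.56). Fibroblast genes were higher in 8 of 9 (median 0.73), but 0 had an unadjusted p under 0.05 in limma. In 2 of the 9, LF/LCL was higher without overlap, against 15.0% of all genes. The mean deviation of the fibroblast list was 0.90 in LF/LCL replicate 1 and -0.21 in replicate 2, against 0.04, -1.04 and 0.31 in SF/SCL, so the groups overlapped. Endothelial genes had a median of -0.06, with 4 of 6 lower. Epithelial genes shared by ciliated and secretory cells were mixed, 5 of 7 higher with a median of 0.23 and a summed level of 35645 and 37854 in LF/LCL and 32193 to 34847 in SF/SCL. Secretory cell genes were split, with 5 of 8 lower and a median of -0.16. At an unadjusted p under 0.05, 2 were lower and 3 higher, against 5.86% and 5.64% of all genes. DESeq2 called 3 of the 8, PAX8, LTF and PIGR. The summed level of the secretory genes was 135345 and 153871 in LF/LCL and 134329 to 160650 in SF/SCL, with overlap. Most of this sum was OVGP1, with 117179 and 142113 in LF/LCL and 122187 to 147247 in SF/SCL. Within the list PIGR was at -4.98 (-8.18 to -1.78) and LTF at 3.03 (1.18 to 4.89).

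The smooth muscle and cilium values can be set side by side in each library. The 2 LF/LCL libraries differed in smooth muscle deviation, at 1.26 and 0.35, while the members were at -0.17 and -0.16. SF/SCL replicate 3 had the lowest smooth muscle deviation, -1.22, and the lowest member deviation of its group, 0.02. Without LF/LCL replicate 1 the median fold change of the members was -0.27, and without SF/SCL replicate 3 it was -0.32. The part of these other cells in the members' difference was not tested.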

How the data were processed

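Per the labels and the methods of the study, the authors made polyA libraries, trimmed read pairs with seqyClean, aligned them to a repeat-masked UMD genome of cattle and counted the reads of each Ensembl gene; the submitters' processing notes name TopHat2 2.0.8, Bowtie2 2.1.0, SAMtools 0.1.18, HTSeq 0.5.4p2 and DESeq 1.12.1. The deposited values are a normalized signal: the count of a gene divided by the library's DESeq size factor. Whether the counting used strand is not given in the sources used here. In a RefSeq table of another assembly (NIAB-ARS_B.indTharparkar_mat_pri_1.0, used for names and neighbours only), 50 of 54 members were found and 14 overlapped a protein-coding gene, among them IFT172, IFT140, TCTN1, TMEM216 and TMEM138; the counts of such genes are uncertain.

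Groups came from the labels, and replicates were numbered in accession order. Genes with a mean above 5 (15815) were tested by limma 3.58.1 in R 4.3.3 (trend and robust, two-sided, Benjamini-Hochberg) on log2(value + 1), which understates changes of low genes. Every value was a whole multiple of 1 read within 0.1 read (100%), and the recovered reads were also tested with edgeR 4.0.16 and DESeq2 1.42.0. The script was tested on simulated data. Alternatives were other pseudocounts, filters and scalings and leaving out each library.

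The members and all lists were chosen with earlier results of these data known. The genes named were the 3 members of each role and the 2 genes of each partner, axoneme and regulator list with the smallest limma p, plus those said to be singled out. Other genes are given as counts or as examples of their lists. Levels per coding length, promoter motifs and sequences were not analysed here. 3 members are counted but not reported by name here. Names of the rule that gave no entry were not analysed here.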

Additional observations from a re-analysis of the deposited data

How the results depend on the processing

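The median log2 fold change of the members stayed between -0.32 and -0.24, and the count of members at an unadjusted p under 0.05 between 12 and 20, over all alternatives run for each. The count at an adjusted p under 0.05 was 0 in limma and edgeR and 6 with DESeq2; the cause was not tested. Members lower in LF/LCL without overlap numbered 32 under TMM scaling and 32 to 40 with a library left out, and 1 to 5 were higher; fewer values are then ordered, and the share of all genes lower without overlap was 20.6% to 28.1% in place of 15.1%. Partner genes at an unadjusted p under 0.05 numbered 12, and 3 to 10 with a library left out, the lowest without LF/LCL replicate 1. With a library left out, the fold change of NPHP4 ran from -0.68 to 0.114 and that of INTU from -0.50 to 0.074, each turning at one LF/LCL library. Of 43 named genes, 13 lost an unadjusted p under 0.05 without LF/LCL replicate 1 and 5 to 8 without any other library; no named gene changed side with edgeR, DESeq2, a pseudocount of 5 or TMM scaling. Several of the 43, among them IFT122 and NPHP4, had no unadjusted p under 0.05 in limma with all libraries, so they could not lose it. Leaving out an LF/LCL library left 1 in that arm, which limma assumes to vary like the others. No paired analysis was possible because the groups were made of different cows. The precision is that of 2 and 3 animals, and each member had at least 50 reads in every library.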
